A study of Mus musculus with 3 samples.

Results

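The cells described here were barcodes with langerin (Cd207) transcripts and high MHC class II expression, chosen by a rule on their own counts from single-cell libraries of mouse skin and proposed as Langerhans cells. A kept barcode had at least 800 UMIs (unique molecular identifiers, each counting 1 captured transcript), at least 300 genes and at most 20% mitochondrial UMIs. A member also had at least 1 Cd207 UMI, at least 20 UMIs of H2-Aa, H2-Ab1 and Cd74 together, fewer than 5 of C1qa, C1qb and C1qc, none of Xcr1 or Clec9a, fewer than 2 of Cd3d, Cd3e and Cd3g, and fewer than 30 of Krt5 and Krt14. The rule found 193 members among 23292 kept barcodes, 117 of 11554 in the control library and 76 of 11738 in the metformin library. The whole skin came from C57BL/6 mice at post natal 7 weeks, with 1 library for each agent (control, Shi-Bi-Man, a natural product tested for hair growth, and metformin, a biguanide drug that inhibits mitochondrial complex I). Dose, route, length of treatment, sex and the number of animals in a library are not given in the labels. Expression in the Shi-Bi-Man library was not analysed here.

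With 1 library per agent there was no replicate and no test between agents. Every difference below compares these libraries and not the treatments, and every interval is a 95% interval that covers counting error only. The control library held 71345558 UMIs in 12108 barcodes (median 3939) and the metformin library 92341365 in 12092 (median 6540). The members themselves were of similar depth, with a median of 5746 UMIs (1069 to 17388) in control and 5807 (848 to 18545) in metformin. The libraries shared 41 barcodes, none of them a member in both, and 1 control member's barcode was also listed in the Shi-Bi-Man library. The extract protocol in the labels mentions monkey tissue, but the gene identifiers are all of mouse.

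Langerhans cells are the resident mononuclear phagocytes of the epidermis. They seed the skin before birth and renew themselves there, held between keratinocytes by adhesion molecules such as E-cadherin and EpCAM and maintained by IL-34 through the receptor Csf1r and by TGF-beta. Langerin is a C-type lectin that forms their Birbeck granules, and MHC class II molecules with the invariant chain Cd74 present peptides to CD4+ T cells. After activation they switch on Ccr7 and leave for the lymph node. Langerin is not exclusive to them: dermal cDC1 carry it as well, and other dermal dendritic cells can hold low levels.

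The genes that set the rule lie in annotated loci of the mouse genome (GRCm38). Cd207 is a protein-coding gene on the minus strand of chr6:83671215-83677857, and H2-Aa (minus strand, chr17:34282744-34287823) and H2-Eb1 (plus strand, chr17:34305867-34316674) are neighbours in the MHC. Their promoter windows are shown because the members were gated on langerin and class II transcripts, H2-Aa among the latter; H2-Eb1 is a class II neighbour that the rule did not use. Each window runs from 250 bases before to 50 bases after the gene's start, 5′ to 3′ on the gene's strand (RefSeq, GRCm38.p6). Capitals mark the AP-1 motif TGACTCA in Cd207 (chr6:83677808-83678107) and the Y box CTGATTGG of the class II promoters in H2-Aa (chr17:34287774-34288073) and H2-Eb1 (chr17:34305617-34305916).
Cd207: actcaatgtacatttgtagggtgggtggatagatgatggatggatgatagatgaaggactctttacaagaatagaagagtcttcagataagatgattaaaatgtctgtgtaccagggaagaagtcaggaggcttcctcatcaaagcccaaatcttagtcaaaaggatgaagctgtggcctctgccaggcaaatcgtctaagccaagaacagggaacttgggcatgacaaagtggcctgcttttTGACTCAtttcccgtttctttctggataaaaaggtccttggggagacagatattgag
H2-Aa: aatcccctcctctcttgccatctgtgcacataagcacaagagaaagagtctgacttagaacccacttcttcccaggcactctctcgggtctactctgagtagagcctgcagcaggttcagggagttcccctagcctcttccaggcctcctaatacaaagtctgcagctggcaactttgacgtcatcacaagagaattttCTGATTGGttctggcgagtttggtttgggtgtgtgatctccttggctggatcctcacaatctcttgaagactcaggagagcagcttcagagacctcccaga
H2-Eb1: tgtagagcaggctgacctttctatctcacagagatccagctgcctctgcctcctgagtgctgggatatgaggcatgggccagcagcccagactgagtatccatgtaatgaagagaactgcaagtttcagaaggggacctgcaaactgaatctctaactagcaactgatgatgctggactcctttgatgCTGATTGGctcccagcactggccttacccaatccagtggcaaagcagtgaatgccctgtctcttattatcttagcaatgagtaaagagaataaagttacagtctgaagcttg
The AP-1 motif begins 7 bases before the start of Cd207, and the Y box begins 51 and 62 bases before the starts of H2-Aa and H2-Eb1. Both strands were searched. CTGATTGG was present in 4.10% and TGACTCA in 5.20% of 32851 windows of this length over 27025 genes, and neither was found in the windows of Mfge8, Ltc4s, H2-M2 or Epcam. These matches describe letters and were not tested as binding sites.

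The label held for less than all of the members. Besides Cd207 and Cd74, the Langerhans markers were Epcam (the adhesion molecule EpCAM, chr17:87635979-87651129), Mfge8 (a secreted bridge to apoptotic cells, chr7:79133768-79149060), Ltc4s (leukotriene C4 synthase, chr11:50236461-50238616) and H2-M2 (a non-classical class I gene, chr17:37480851-37483552). Of the 117 control members, 58 had no UMI of any of these 4 genes, 23 had 1 of them, 7 had 2, 6 had 3 and 23 had all 4. Of the 76 metformin members, 20 had none, 12 had 1, 9 had 2, 8 had 3 and 27 had all 4. Members with at least 2 of the 4 are called Langerhans-like here, a threshold set after the values were seen, and there were 36 in control (30.8%, exact binomial interval 22.6 to 40.0) and 44 in metformin (57.9%, 46.0 to 69.1). Of these, 7 of 36 in control and 6 of 44 in metformin had at least 3 UMIs over a dermal dendritic list that includes Mgl2 and Cd209a. The name is therefore loose, and every value given below for the Langerhans-like cells includes these cells. The remaining 81 and 32 members are described by their leading genes.

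The other members fell into 3 sets. The largest had at least 2 UMIs of the C-type lectin genes Mgl2, Cd209a and Cd209d, which mark dermal dendritic cells, and fewer than 3 of Ccr7, Fscn1 and Ccl22, with 49 cells in control and 17 in metformin. A set with at least 3 UMIs of Ccr7 (the lymph node homing receptor), Fscn1 (the actin bundler fascin) and Ccl22 (a T cell attractant) together had 12 and 3 cells. Its UMIs were mostly of Ccr7, with 47 in control and 14 in metformin, whereas Ccl22 had 17 and 0 and Fscn1 was at 0 in both. Of these cells 10 of 12 and 3 of 3 also had at least 3 UMIs over the dermal dendritic list. The remainder had 20 and 12 cells, of which 15 and 9 had at least 3 UMIs over a cDC1 list that includes Itgae, Cadm1 and Wdfy4, although Xcr1 and Clec9a were at 0 by the rule.

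**Figure D1:**
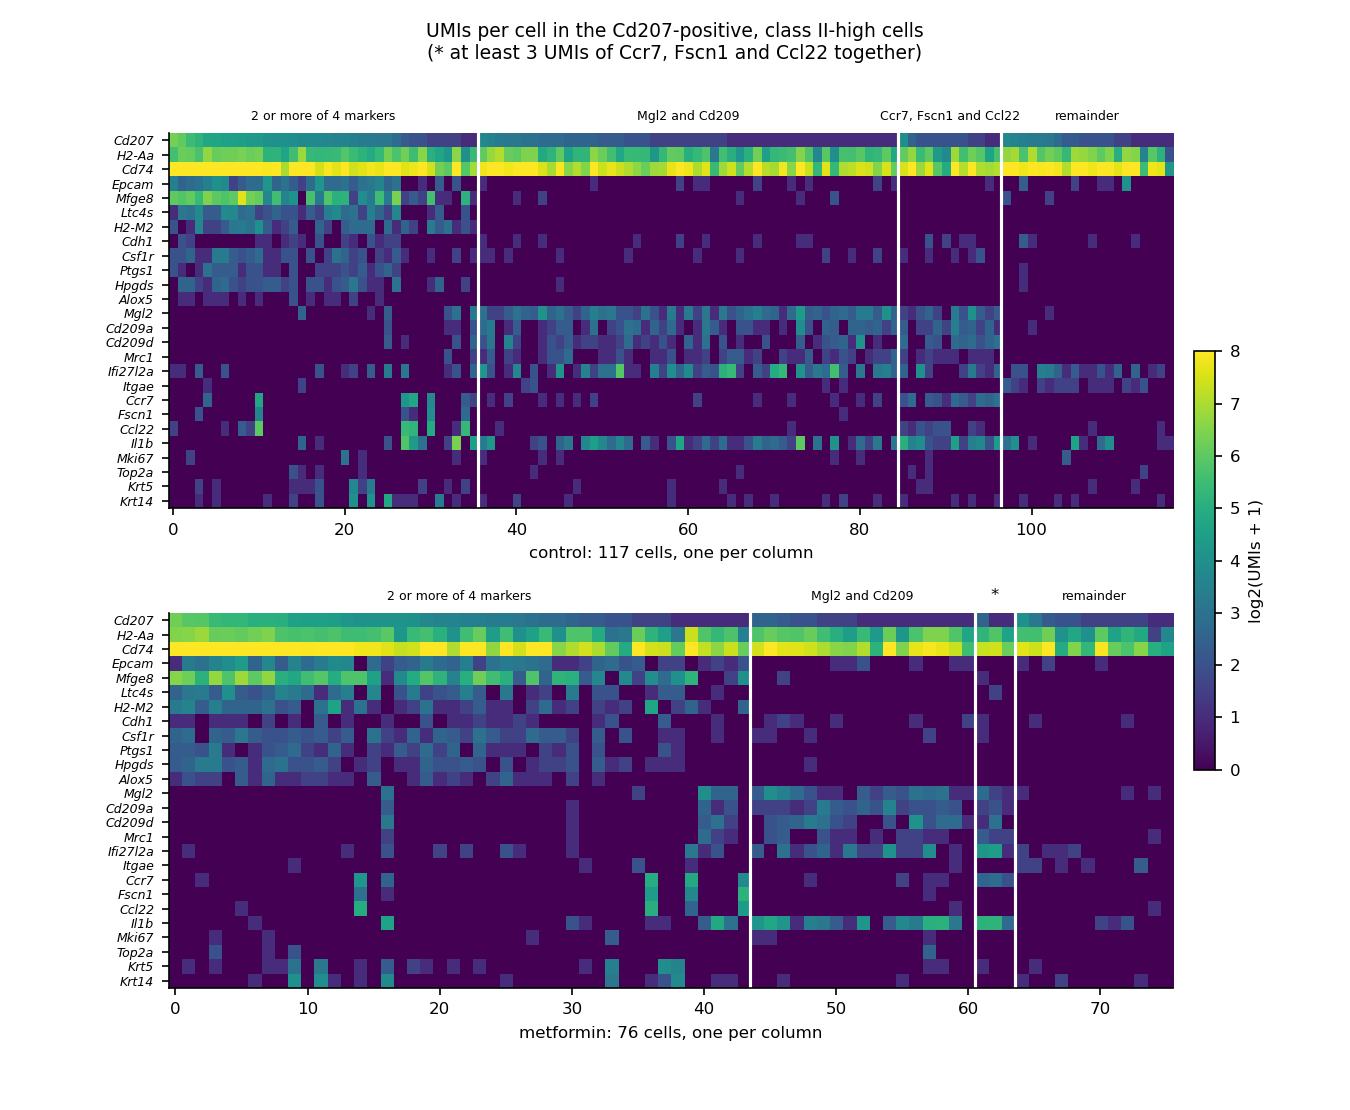
UMIs of defining genes (rows, log2(UMIs + 1) as colour) in each of the 117 control and 76 metformin members (columns), ordered by set. Epcam, Mfge8, Ltc4s, H2-M2, Csf1r, Ptgs1 and Hpgds lie mostly in the left-hand set, and Mgl2, Cd209a, Cd209d and Mrc1 mostly in the middle sets. The remainder on the right held 7 and 3 UMIs of the dermal dendritic list, and 7 and 6 left-hand cells had at least 3.

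How much Cd207 a cell held separated these sets only in part. The median was 12.5 UMIs in the Langerhans-like cells of control and 10.5 in those of metformin, against 2 and 1 in the cells with Mgl2 and Cd209 genes. The ranges overlapped: Langerhans-like cells ran from 1 to 79 and from 1 to 76, and a control cell with none of the 4 markers had 14. With all 4 markers the median was 15 in control and 16 in metformin, and with 3 it was 9.5 and 3. With 2 markers, the lowest number called Langerhans-like, it was 3 and 2, the same as with none. Among members with 1 Cd207 UMI, 2 of 29 in control (6.90%) and 6 of 19 in metformin (31.6%) were Langerhans-like, and among those with 5 or more the shares were 54.0% of 50 and 86.1% of 36. Mgl2 went the other way, from 79.3% and 78.9% of cells with 1 Cd207 UMI to 40.0% and 13.9% of cells with 5 or more.

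**Figure D2:**
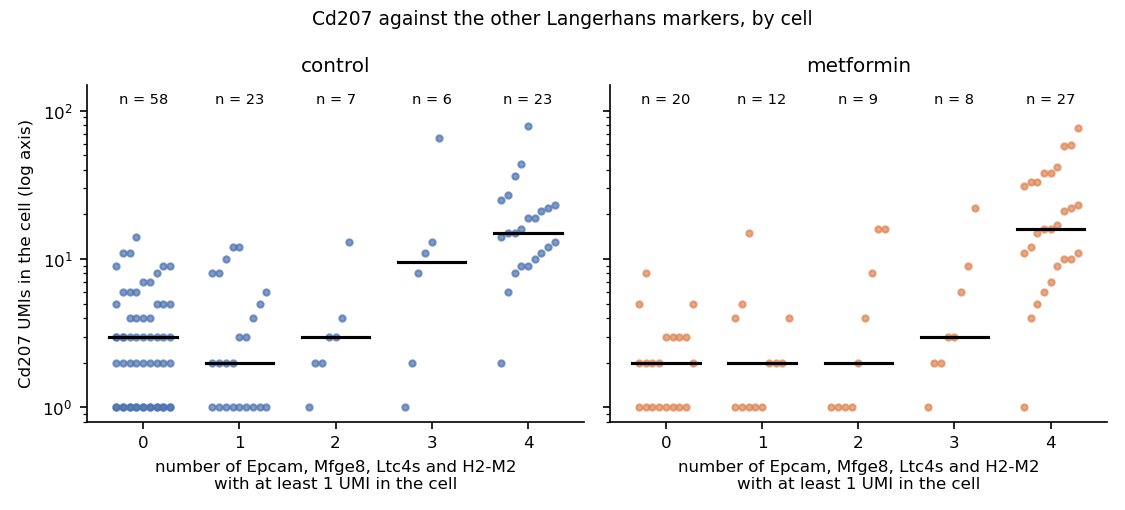
Cd207 UMIs per cell (log axis) against the number of Epcam, Mfge8, Ltc4s and H2-M2 with at least 1 UMI, 1 point per member, with medians as lines. The median is 15 in control and 16 in metformin with all 4 markers, 3 and 2 with 2 of them, and 3 and 2 with none.

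A single UMI can be free RNA, so the same genes were counted in cells that should lack them. Cd207 was seen in 1.29% and 0.613% of keratinocyte barcodes in control and metformin, in 0.147% and 0.222% of fibroblast barcodes and in 0.320% and 0.429% of T cell barcodes, against 30.3% and 33.8% of all class II-high barcodes (medians 9080 UMIs in the control keratinocyte, 3196 in its fibroblast, 2327 in its T cell and 4756 in its class II-high barcodes). Of the 4 markers, Epcam had a UMI in 64.7% and 65.2% of keratinocyte barcodes and 14.1% and 15.6% of T cell barcodes, and Mfge8 in 55.2% and 60.6% of fibroblast barcodes and 10.6% and 9.57% of T cell barcodes. H2-M2 was found in 0 of 625 and 0 of 700 T cell barcodes, although 5.88% and 5.21% of keratinocyte barcodes had it. In the Langerhans-like cells the 4 genes were each found in 72.7% to 94.4% of cells, which partly follows from their definition.

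The gates against other cell types also took out many barcodes with at least 2 of the 4 markers. With the Cd207 and class II gates alone, 96 control barcodes (0.831% of kept, 0.674 to 1.01) and 104 metformin barcodes (0.886%, 0.724 to 1.07) had at least 2 of the 4 markers. The rule left out 60 of the 96 (62.5%) and 60 of the 104 (57.7%). The keratin gate was failed by 40 and 36 of these, the C1q gate by 23 and 19, the Cd3 gate by 9 and 19 and the Xcr1 and Clec9a gate by 6 and 6, some failing several. Their median depth was 17132.5 and 14092.5 UMIs, above the 7152 and 6301 of the Langerhans-like members, and the doublet caller Scrublet marked 2 of the 27 and 9 of the 22 barcodes that failed the keratin gate alone. Whether such a barcode held more than 1 cell was not tested beyond those calls.

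Barcodes on either side of each threshold were as follows. Among barcodes that failed the Cd207 gate alone, with no Cd207 UMI, 20 of 333 in control (6.01%) and 9 of 249 in metformin (3.61%) had 2 of the 4 markers, beside the 2 of 29 and 6 of 19 members at 1 Cd207 UMI. The 3 control and 3 metformin members with 20 to 29 Krt5 and Krt14 UMIs all had 2 of the 4 markers, and no barcode that met the other gates had 30 to 39. No barcode that met the other gates had 10 to 29 class II UMIs.

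Markers of unrelated cells were at or near 0 in the members. All 4 neutrophil and all 3 B cell markers were at 0 in both libraries, and the mast cell list held 0 UMIs in control and 1 in metformin. Cd3d and Cd3e were at 0 in both, and the T cell list summed to 30 and 49 UMIs. Keratinocyte transcripts were present: the basal list reached 532 and 664 CPM (counts per 1000000 summed UMIs of the cells named) in the Langerhans-like cells, with all 5 genes detected, and the suprabasal list 1117 and 840 CPM, of which 169 of 300 and 190 of 258 UMIs came from 1 cell. One control cell of the remainder held 937 of the 938 haemoglobin UMIs, and single cells held 129 of the 343 and 151 of the 194 fibroblast UMIs. Scrublet marked 7 control and 4 metformin members, among them 1 and 3 Langerhans-like cells.

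As a description of what the rule gathered, the 20 genes with the largest fold over all other kept barcodes were led by Cd207, Ltc4s, Pgf, Ccl22, Csf2rb, Xlr, Mmp12, Cd86, H2-DMb2 and Snx20. The class II genes H2-Ab1, H2-Aa, H2-Eb1, H2-DMa and Cd74 followed with Cd14, Alox5ap, Cd300c2, Csf2rb2 and Cd72. Folds of the 20 ran from 26.1 to 45.0 in control and from 30.2 to 108 in metformin. With 2 Cd207 UMIs required, 19 of the 20 stayed on the list. Pgf, Mmp12 and Csf2rb were higher in the other members than in the Langerhans-like cells: Pgf (placental growth factor) was at 253 and 133 CPM in the latter and at 594 and 956 CPM in the former.

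Within the members, other genes went with the 4 markers, keratinocyte genes among them. Krt5, Krt14, Krt79, Fxyd3 and Lgals7 were among the 30 genes with the largest fold of Langerhans-like cells over other members, and the basal keratinocyte list was at 532 and 664 CPM in the Langerhans-like cells against 78.6 and 89.5 in the cells with Mgl2 and Cd209 genes. That list reached at least 3 UMIs in 9 of 36 and 8 of 44 Langerhans-like cells, so few cells carried most of it. Krt5 and Krt14 together had medians of 1 and 0.5 UMIs in the Langerhans-like cells, with 27 and 24 at most. The part of keratinocyte RNA in the levels below was not tested. Mfge8 stood at 5088 and 5024 CPM in the Langerhans-like cells of control and metformin and at 27.9 and 21.2 CPM in all other members. Ltc4s was at 644 and 582 CPM against 0 and 14.2, H2-M2 at 529 and 576 against 0 in both, and Epcam at 785 and 823 against 81.5 and 85.0, and these differences follow in part from how the set was cut. Genes that did not define the set went with it too, but they come from the same cells and their levels are likewise a description. Csf1r, the receptor for IL-34 and Csf1, was at 335 and 400 CPM against 40.8 and 42.5, and was found in 77.8% and 77.3% of Langerhans-like cells. Tbc1d4, a Rab GTPase-activating protein, was at 1031 and 996 CPM against 152 and 163.

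Some enzymes of prostaglandin and leukotriene synthesis were higher in the Langerhans-like cells than in the other members. Hpgds, the haematopoietic prostaglandin D synthase, was at 335 and 338 CPM in the Langerhans-like cells against 4.29 and 7.08 in the other members, and 27 of 36 and 33 of 44 cells had a UMI. Ptgs1, the constitutive cyclooxygenase, was at 231 and 283 CPM against 2.15 and 0, and found in 63.9% and 68.2% of cells. Alox5, which starts leukotriene synthesis, was found in 13 of 36 and 26 of 44 Langerhans-like cells and in no other member of either library. Alox5ap, which serves Alox5, was instead spread over all members, at 1061 and 993 CPM against 1025 and 985.

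C1qa is a gene of the rule, which capped C1qa, C1qb and C1qc at fewer than 5 UMIs together, so its values are a description of what the gate let through. It had a UMI in 21 of 36 (58.3%) and 27 of 44 (61.4%) Langerhans-like cells and in 0 of 49 and 0 of 17 cells with Mgl2 and Cd209 genes, while C1qb summed to 7 and 3 UMIs in the Langerhans-like cells and C1qc to 0 and 1. Mrc1, the mannose receptor of dermal phagocytes, ran the other way, in 5.56% and 11.4% of Langerhans-like cells against 71.4% and 58.8% of the cells with Mgl2 and Cd209 genes. Il1b, the cytokine IL-1 beta, was found in 9 of 36 and 9 of 44 cells against 37 of 49 and 15 of 17. Of its 199 and 70 UMIs in the Langerhans-like cells, 195 and 64 were in the 7 and 9 cells that had 2 of the 4 markers. Cdh1, E-cadherin, had a UMI in 14 of 36 and 22 of 44 Langerhans-like cells and in 9 of 49 and 6 of 17 of the cells with Mgl2 and Cd209 genes, whose intervals overlap (23.1 to 56.5 and 8.76 to 32.0 in control).

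The genes higher in the other members included the lectins Cd209a (408 and 460 CPM against 29.8 and 45.6) and Mgl2 (719 and 609 against 104 and 107), the lysozyme gene Lyz2 (3117 and 2373 against 763 and 267) and the interferon-responsive Ifi27l2a (1195 and 807 against 167 and 84.6). Tmsb10, a thymosin that binds actin monomers, was at 3443 and 3782 CPM in the other members and at 770 and 794 CPM in the Langerhans-like cells. Class II levels did not divide them in this way: Cd74 was at 35148 and 34596 CPM in the Langerhans-like cells and 34968 and 31738 CPM in the other members, and H2-Aa was lower in the former, at 7385 and 7055 against 9774 and 9725.

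Set beside dermal dendritic cells, the Langerhans-like cells differed at the same genes. Those cells, taken as barcodes without Cd207 that passed the class II and other gates with at least 2 UMIs of Mgl2, Cd209a and Cd209d, numbered 248 in control and 183 in metformin. Their levels were 34.9 and 17.2 CPM for Mfge8, 2.55 and 1.23 for Ltc4s, 5.10 and 4.91 for H2-M2, 5.10 and 6.14 for Hpgds and 46.8 and 46.6 for Epcam. Rgs1, a regulator of G-protein signalling, was at 5233 and 3618 CPM in the Langerhans-like cells against 547 and 291, and Cd72 at 395 and 400 against 42.5 and 11.04. Since both sets were cut from the counts being compared, no test was run.

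**Figure D3:**
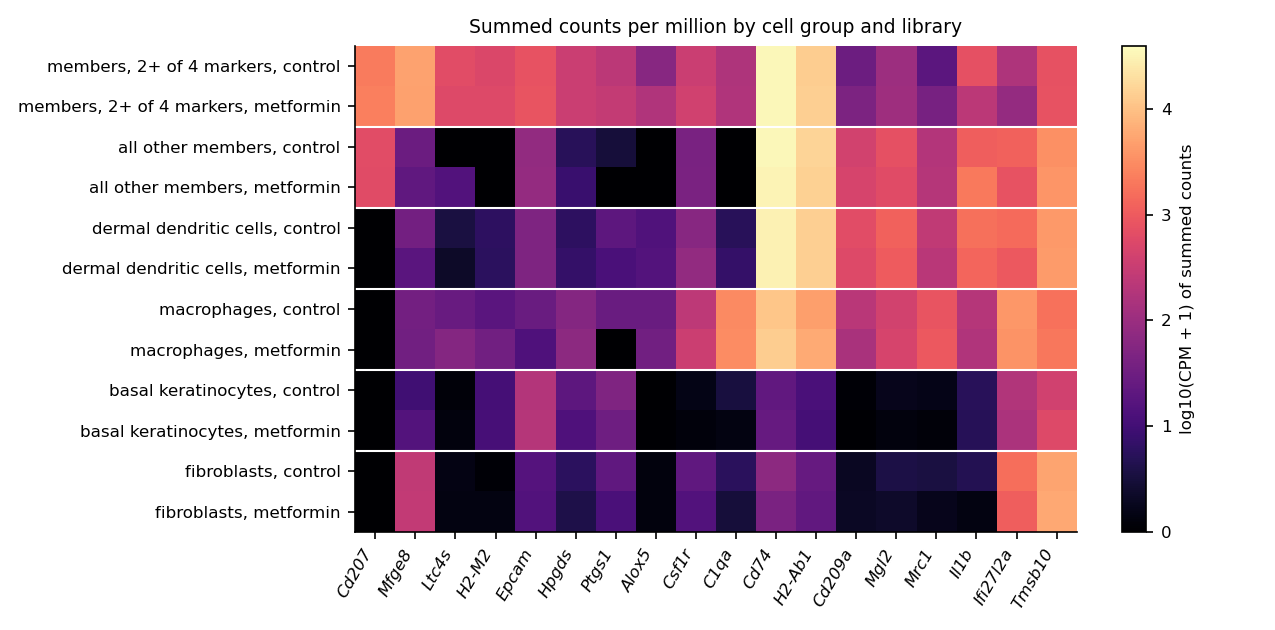
Summed CPM (log10(CPM + 1) as colour) of defining genes in Langerhans-like members, all other members, dermal dendritic cells, macrophages, basal keratinocytes and fibroblasts of each library. Mfge8, Ltc4s, H2-M2 and Hpgds are high in the top pair of rows; Cd207 is 0 below the members because the rules of the compared cells required it.

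Over gene lists, the Langerhans-like cells lay below dermal dendritic cells for several. The median log2 ratio of the pattern receptor list was -1.50 in control and -1.99 in metformin (3 and 4 of 16 measured genes higher), and that of the interferon response list was -1.16 and -1.68 (2 of 18 higher in each library). The pattern receptor list holds Mgl2 and Cd209a, by which the dermal dendritic cells were chosen, and Cd207, which they lacked by the rule, so its value follows in part from the choice of cells. Chemokines and their receptors were at -0.89 and -2.61, Fc receptors and phagocytosis at -0.92 and -0.44 and class I presentation at -0.65 and -0.50. For the 18 nuclear genes of respiratory complex I the medians were -0.46 and -0.42, with 1 gene higher in each. The Langerhans identity list was above, at 0.42 and 0.73, and holds Epcam, Mfge8 and Ltc4s, 3 of the 4 genes that defined the set. Over all 7665 genes compared the medians were -0.19 and -0.07.

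Division and maturation were seen in small numbers of cells. A UMI of the division genes Mki67 or Top2a was found in 18 of 117 control members (15.4%, 9.38 to 23.2) and 8 of 76 metformin members (10.5%, 4.66 to 19.7), and in 7 of 36 and 5 of 44 Langerhans-like cells. The difference was -4.86 points (-14.0 to 5.56). The same genes were found in 1.91% and 9.52% of fibroblasts. Of the 5 metformin Langerhans-like cells, 1 with 4 Mki67 UMIs had 10 of Krt5 and 8 of Krt14. Another with 3 Top2a UMIs had 7 and 15, and the others had at most 1 of Krt5 and 0 of Krt14. The 7 in control included cells with 5 and 7 Mgl2 UMIs, and the others had 0. Thinned to 1500 UMIs a cell, which left out 1 and 4 shallower cells, the members' shares were 6.90% and 2.78%. At least 3 UMIs of Ccr7, Fscn1 and Ccl22 were found in 20 control members (17.1%, 10.8 to 25.2) and 8 metformin members (10.5%, 4.66 to 19.7), of which 8 and 5 were Langerhans-like. That difference was -6.57 points (-15.9 to 4.02), so neither was detectable at these cell numbers. Basal keratinocytes, which should lack the maturation genes, passed the same mark in 3.63% and 3.89% of barcodes.

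The Langerhans-like cells with those maturation genes were a mixed group. In the 8 control cells the median Cd207 was 11.5 UMIs, against 12.5 in the 28 without, and in the 5 metformin cells it was 2 against 11 in 39. Csf1r stood at 214 and 44.6 CPM in them against 370 and 461, and Epcam at 445 and 111 CPM against 884 and 945. Ccr7 was at 1485 and 2073 CPM against 9.61 and 3.81. The control medians rest on cells near the threshold: 3 of the 8 had 3 to 5 maturation UMIs and Cd207 counts of 21, 27 and 36, and the other 5 had 49 to 98 maturation UMIs and Cd207 counts of 1, 2, 3, 4 and 19, with Epcam at 0 in 4 of them. In metformin 1 cell had 6 maturation UMIs, and the other 4 had 45 to 82, with Epcam at 0 in 3. The number of cells is too small to set the libraries against each other here.

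The share of members was lower in the metformin library, whereas that of the Langerhans-like cells differed by less than its counting error. Members made up 1.01% of kept barcodes in control (0.838 to 1.21) and 0.647% in metformin (0.510 to 0.810), a difference of -0.365 percentage points (-0.603 to -0.132, Newcombe interval). Langerhans-like cells made up 0.312% (0.218 to 0.431) of the control and 0.375% (0.272 to 0.503) of the metformin barcodes, which differ by 0.0633 points (-0.0897 to 0.218). All other members were 0.701% and 0.273%, a ratio of 0.389 (0.2498 to 0.592). The cells with Mgl2 and Cd209 genes alone went from 0.424% to 0.145%, a ratio of 0.342 (0.184 to 0.603).

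**Figure D4:**
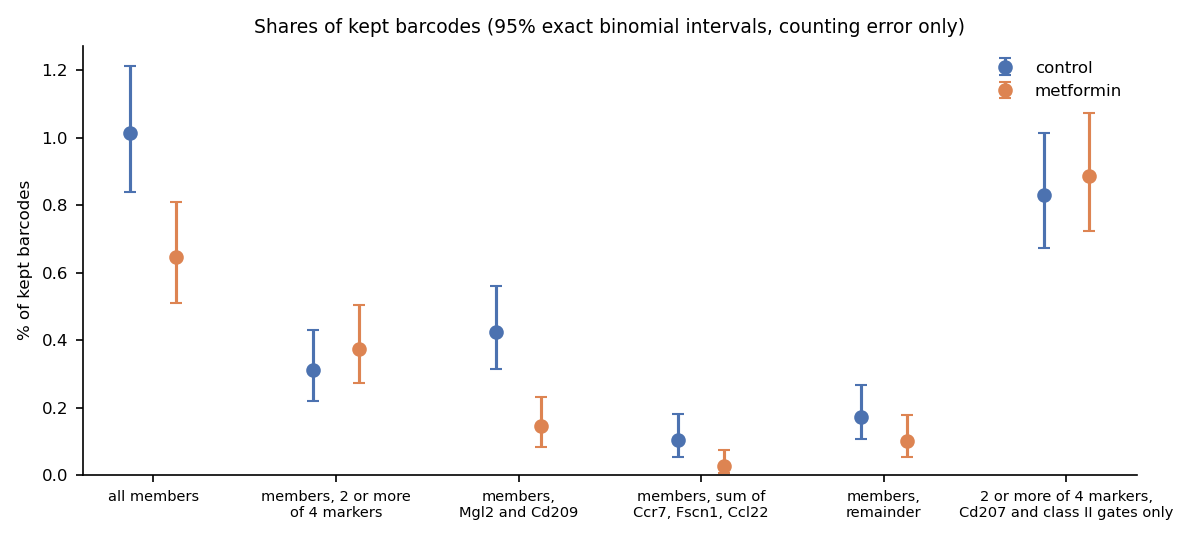
Members and their sets as a percentage of kept barcodes in the control (blue) and metformin (orange) libraries, with 95% exact binomial intervals. The intervals of all members (0.838 to 1.21 and 0.510 to 0.810) do not overlap, and those of the members with 2 or more of the 4 markers (0.218 to 0.431 and 0.272 to 0.503) do.

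Shares of kept barcodes also move with every other cell type in the library. Basal keratinocytes were 23.1% of kept barcodes in control and 35.9% in metformin, fibroblasts 23.5% and 15.3%, macrophages 2.16% and 0.869% and dermal dendritic cells 2.15% and 1.56%. The part of these shifts in the members' share was not tested. Among class II-high barcodes only, 745 and 559 in number, members were 15.7% and 13.6%, a difference of -2.11 points whose interval included 0 (-5.92 to 1.83). Langerhans-like cells were 4.83% and 7.87% of class II-high barcodes, a difference of 3.04 points (0.391 to 5.89). Within the members the Langerhans-like share differed by 27.1 points (12.8 to 40.1), and thinned to 1500 UMIs it was 27 of 116 cells and 36 of 72. Without the gates against other cell types, barcodes with 2 of the 4 markers differed by 0.0551 points (-0.184 to 0.294).

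For gene levels the members of each library were summed. Over 1370 genes with at least 100 UMIs in both libraries together, 14 were at least 2-fold higher in metformin (1.02%) and 26 at least 2-fold lower (1.9%), and in the Langerhans-like cells alone 5 of 745 (0.671%) and 13 of 745 (1.74%). With the members called by Scrublet removed, 26 of 1237 genes were at least 2-fold higher and 19 lower. The median log2 ratio over these genes was 0.02 for all members and 0.00 for the Langerhans-like cells. Because the Langerhans-like share of the members was unequal, ratios are given both ways below, first over all members and then within the Langerhans-like cells.

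The ratios of the markers differed between these sets of cells. Epcam, Mfge8, Ltc4s and H2-M2 defined the Langerhans-like set and Cd207 is a gene of the rule. Their values therefore follow in part from the choice of cells. Cd207 had a log2 ratio of metformin over control of 0.59 over all members and 0.11 within the Langerhans-like cells (ratio 1.08, 0.969 to 1.21). Mfge8 was at 0.88 and -0.02 (ratio 0.987 within, 0.918 to 1.06), Epcam at 0.80 and 0.07, Ltc4s at 0.78 and -0.14, and H2-M2 at 1.03 and 0.12. The lectin genes had the opposite sign over all members, with Mgl2 at -0.90 and Cd209a at -0.61, and stood at 0.04 and 0.61 within, on 28 and 33 and on 8 and 14 UMIs. The intervals within the Langerhans-like cells include a ratio of 1 for all of these genes.

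Transcripts of the class II list were near even between the libraries. The rule gated on H2-Aa, H2-Ab1 and Cd74 of this list, so their levels describe cells chosen by them. Of 17 measured genes of the class II list 8 were higher in metformin over all members and the median log2 ratio was -0.02, and within the Langerhans-like cells it was 6 of 15 with a median of -0.02. Cd74 was at -0.06 and -0.02, H2-Ab1 at -0.08 and 0.06 and H2-Eb1 at -0.06 and 0.05. H2-DMa, a chain of the peptide editor H2-DM, was at 0.28 and 0.30 (422 and 595 UMIs within, ratio 1.23, 1.09 to 1.40). None of the 11 genes with at least 100 UMIs passed 2-fold in either set.

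Transcripts of the class I list were lower over all members, with 4 of 19 genes higher and a median of -0.21. Within the Langerhans-like cells the median was -0.05, with 9 of 18 higher. H2-D1, a classical class I heavy chain, was among the genes that were lower in both, at -0.57 and -0.53, on 410 UMIs in 36 control cells and 324 in 43 metformin cells (ratio 0.691, 0.595 to 0.801). B2m, the light chain, was at -0.28 and -0.13. H2-M2 was the one gene of this list past 2-fold, over all members only, against 1.02% of all genes. Reads of near-identical class I genes can be split between them, which makes each single value uncertain.

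The chemokine list was the lowest of the lists. Over all members 3 of 15 measured genes were higher, the median was -1.03 and 3 of 8 genes with 100 UMIs were past 2-fold lower, against 1.9% of all genes. Within the Langerhans-like cells 0 of 10 were higher and the median was -1.49. Ccl4, an attractant of T cells and monocytes, had 397 UMIs in 33 control members and 48 in 7 metformin members (log2 ratio -2.34), and 177 in 5 and 20 in 3 Langerhans-like cells. Ccl22 was at -0.70 and -1.51 (219 UMIs in 10 Langerhans-like control cells, 88 in 5 metformin cells), Ccl2 at -1.24 and -1.47, and Cxcl10 at -2.89 and -2.82 (16 and 3 cells over all members). Ccl5 had 78 UMIs in 11 control members and 0 in metformin.

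These chemokines come from few cells, and the sign was not the same for all of the list. One control cell alone held 61 of the 177 Ccl4 UMIs of the Langerhans-like cells and one 62 of the 219 of Ccl22. Cxcl2, a neutrophil attractant and the most counted gene of the list, was at 0.30 over all members and -0.58 within the Langerhans-like cells, in 31 of 36 and 27 of 44 cells. Ccr7 was at 0.26 and -0.16. Cxcr4, the receptor for Cxcl12, was at -1.03 and -1.27, on 19 and 9 UMIs within.

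Eicosanoid genes showed Alox5 in more cells of the metformin library. Over all members the list's median was 0.64 and within the Langerhans-like cells 0.01. Alox5 had 16 UMIs in 13 of 36 Langerhans-like control cells (36.1%, 20.8 to 53.8) and 52 in 26 of 44 metformin cells (59.1%, 43.2 to 73.7), a log2 ratio of 1.51 (ratio 2.84, 1.60 to 5.33), and 1.66 without the cell with most UMIs in each library. It fell short of the 100 UMIs used for the counts of genes. Ptgs1 was at 1.18 and 0.29, Hpgds at 0.90 and 0.01, and Alox5ap at -0.07 and -0.10.

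Cytokine values depended on single cells. Il1b was at -0.28 over all members and -1.70 within the Langerhans-like cells, but there it was found in 9 cells of each library and 1 control cell held 83 of the 199 UMIs. Cells with 2 of the 4 markers held 195 Il1b UMIs in control and 64 in metformin, and those with all 4 held 4 in each. The control cell with 83 had 7 Mgl2 UMIs, whereas a control cell with 56 had 0. The metformin cell with 28 had 5. Tnf was at 1.31 and 0.69, with 97 of its 225 metformin UMIs in 1 cell, and at 0.69 and -0.02 without the top cell of each library. Il18, an IL-1 family cytokine, was at 1.15 and 0.98 on 20 and 45 UMIs in 14 and 21 Langerhans-like cells (ratio 1.97, 1.14 to 3.52). Il1r2, the decoy receptor for IL-1, was at 0.40 and -0.19.

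Lectins and pattern receptors had a median of -0.43 over all members and 0.10 within the Langerhans-like cells. Cd14, the co-receptor for lipopolysaccharide, was at -1.38 and -3.94, with 67 UMIs in 10 Langerhans-like control cells, 29 of them in 1, and 5 UMIs in 5 metformin cells. Clec4n, the lectin Dectin-2, was at 0.92 and 0.98 (28 and 63 UMIs in 18 and 25 cells). The lysosomal enzyme Lyz2 was at -1.28 and -1.52, from 11 and 9 Langerhans-like cells. Lgals3, the glycan-binding protein galectin-3, was at -0.67 and -0.74, on 686 UMIs in 35 control cells and 471 in 41 metformin cells.

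The interferon list had 1 of 8 genes higher over all members (median -0.67) and 0 of 6 within the Langerhans-like cells (median -0.34). Ifi27l2a was at -1.39 and -0.99, the latter on 45 and 26 UMIs in 13 and 11 cells. Immediate early genes, which are switched on within minutes by stimuli and by tissue dissociation, had 12 of 16 higher over all members (median 0.34) and 9 of 15 within (median 0.08). Egr1 was at 1.25 and 0.89, on 104 UMIs in 15 control and 221 in 28 metformin Langerhans-like cells, while Ier3 was at -0.20 and -1.02 and Klf2 at -0.30 and 1.74. How far dissociation enters these values was not tested.

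Transcripts of the nuclear genes of respiratory complex I, the enzyme that metformin inhibits, showed small ratios. Activity of the enzyme was not measured. Of the 18 complex I genes 13 were higher over all members (median 0.17) and 11 within the Langerhans-like cells (median 0.06), and none passed 2-fold. Glycolysis genes had medians of 0.15 and -0.06 and heat shock genes of 0.22 and -0.01. Over all genes with at least 20 UMIs the medians were 0.07 (5310 genes) and 0.03 (3351 genes), with 55.6% and 52.8% higher.

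The remaining lists had medians between -0.32 and 0.32 within the Langerhans-like cells. The identity list had medians of 0.18 and 0.03, adhesion to keratinocytes 0.16 and 0.07, costimulation and maturation -0.15 and -0.32, Fc receptors and phagocytosis -0.11 and -0.06, myeloid transcription factors -0.16 and -0.26, and actin genes -0.00 and 0.05. The division list was at 0.36 and 0.32, with 8 of 12 and 5 of 6 measured genes higher. Of its 2 genes with 100 UMIs 1, Stmn1, was past 2-fold higher in both sets, against 1.02% and 0.671% of all genes. Ube2c, on 38 UMIs within the Langerhans-like cells, went the other way, at -0.94 and -1.88. Irf8, a factor of the dendritic lineages, was at -0.00 over all members and 0.94 within, on 21 and 46 UMIs.

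**Figure D5:**
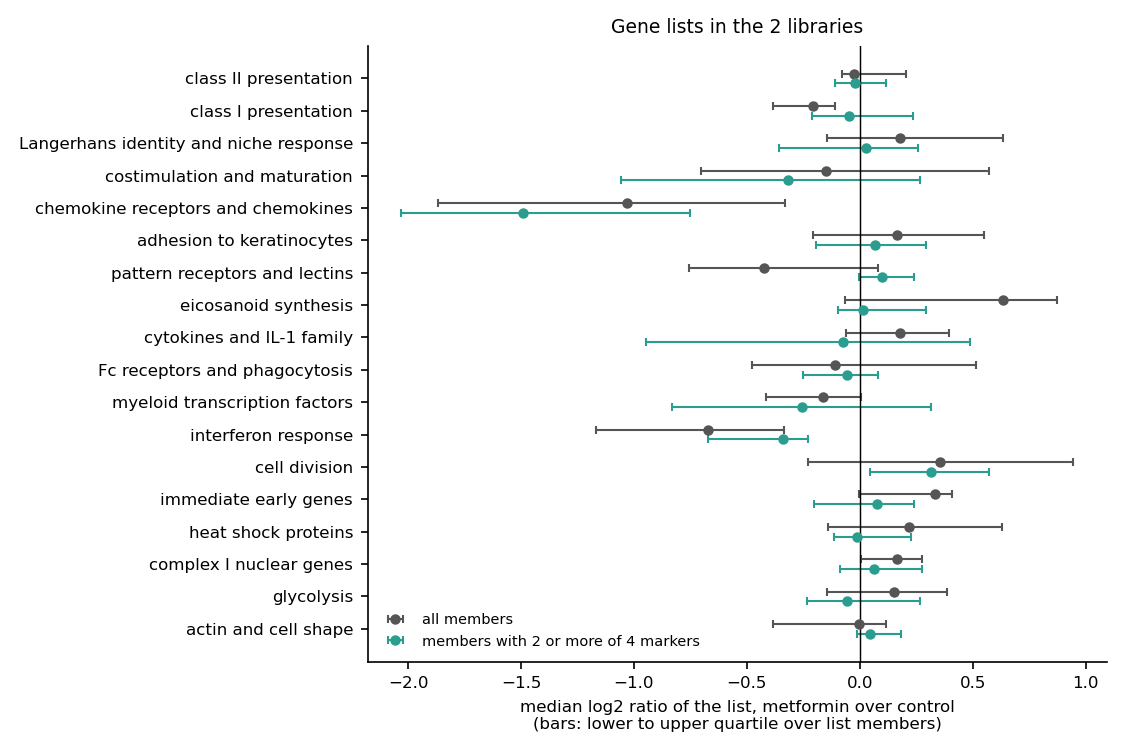
Median log2 ratio of metformin over control for 18 gene lists, over all members (grey) and the Langerhans-like cells (green), with bars from the lower to the upper quartile of the list's genes. The chemokine list is lowest in both, at -1.03 and -1.49, and the class II list is at -0.02 in both.

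Over all members the genes with the highest log2 ratios were Hist1h2ap (2.07), Stmn1 (1.91), Hist1h2ae (1.86), Fscn1 (1.67, in 7 and 6 cells), Id3 (1.57), Krt5 (1.36), Tnf (1.31), Egr1 (1.25), Cyb5r3 (1.23) and Gpr141 (1.23). Histones and Stmn1 are transcribed in dividing cells, and the share of members with a UMI of Mki67 or Top2a was not higher in metformin. The part of division in these ratios was not tested. Within the Langerhans-like cells Hist1h2ap was at 1.47 on 29 and 92 UMIs, with 43 of the 92 in 1 cell. Among the lowest were Krt17 (-3.30), Krt79 (-2.73), Ccl4, Calm4 (-2.21), Fem1c (-2.16), Lyz1 (-2.06), Defb6 (-2.004), Mt4 (-1.55) and Ear2 (-1.47). Krt17, Krt79, Calm4, Defb6 and Mt4 are keratinocyte genes, and 1 control cell held 116 of the 177 Krt17 UMIs. Krt5, among the highest, is a keratinocyte gene too. Of its 65 UMIs in the metformin Langerhans-like cells, single cells held 14, 11, 10, 8 and 7.

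Spread over many cells were Fem1c and Grn. Fem1c, a substrate receptor of a ubiquitin ligase, had 95 UMIs in 61 of 117 control members, none with more than 5, and 13 in 10 of 76 metformin members (ratio 0.224, 0.115 to 0.402), and in the Langerhans-like cells 12 in 9 and 2 in 2. In dermal dendritic cells its log2 ratio was -0.43. Grn, the secreted growth factor and lysosomal protein progranulin, was among the 5 genes past 2-fold higher within the Langerhans-like cells, at 1.37 with 28 UMIs in 18 of 36 control cells and 83 in 36 of 44 metformin cells (ratio 2.59, 1.67 to 4.13). Over all members it was at 0.54, and in dermal dendritic cells at -0.10. Neither gene has a test, since each library is a single sample.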

How the data were processed

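Single cells of mouse skin were profiled by 3′ RNA sequencing, and the files the authors deposited hold unnormalized UMI counts for every gene in every barcode, made with Cell Ranger 4.0.0 (31053 genes, GRCm38 per the labels and file headers), as filtered barcodes whose lowest total was 500 UMIs. Chemistry, Cell Ranger's parameters and any doublet removal were not given in the sources used here. The paper supplied with the data describes another experiment and was not used for the design.

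Barcodes were kept at 800 or more UMIs, 300 or more genes and up to 20% mitochondrial UMIs. Members, gene lists and comparison cells were chosen with earlier results of these data known, and members by values of the same cells, so comparisons with other cells are descriptions. UMIs of a set were summed per library and scaled to 1000000. Ratios have exact conditional binomial intervals, shares exact Clopper-Pearson intervals and differences Newcombe intervals, all at 95%. The counting of ratios was tested on simulated data. Named genes were the markers and rule genes, the 20 with the highest fold over other kept barcodes, the 10 highest and 10 lowest ratios among genes with 100 UMIs and 50 CPM (without mitochondrial, ribosomal protein and haemoglobin genes and Xist), and of each list up to 6 by UMIs and 3 by ratio with 20 UMIs. A gene that this choice by ratio selects is not reported here. Genes leading the Langerhans-like set, Fem1c and Grn among them for their spread over cells, were singled out after their values were seen. List medians used genes with 20 UMIs. Doublets were called with Scrublet (scanpy 1.11.5, expected rate 8%) and were kept. The tools were Python 3.11.15, numpy 2.4.6, scipy 1.17.1 and pandas 2.3.3. Alternatives changed each gate, the barcode filter, doublet removal, scaling, count minimum, weighting of cells and depth (thinning to 1500 UMIs).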

Additional observations from a re-analysis of the deposited data

How the results depend on the processing

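No paired analysis was possible because each agent had 1 library, and leaving out a replicate was not an option. Of 69 values of shares under alternatives 62 kept their value within error, as did 11 of 18 counts of genes, 176 of 180 list medians and 465 of 599 gene ratios.

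The lower share of members in metformin depended on how the cells were chosen. Requiring at least 1 Epcam UMI changed the difference to 0.0278 points of kept barcodes and 2.77 points of class II-high barcodes. Further choices were added after the data were seen. Langerhans-like cells only gave 0.0633 and 3.04 points, the Cd207 and class II gates alone with 2 of the 4 markers gave 0.0551 and 5.72 points, and at least 5 Cd207 UMIs gave -0.126 points of kept barcodes.

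The genes past 2-fold higher numbered 6 with Epcam required, 26 with Scrublet doublets removed and 58 at a minimum of 50 UMIs. In Langerhans-like cells they were 5 of 745 (0.671%), against 14 of 1370 (1.02%) over all members. Those lower numbered 17 with 300 to 3000 genes and at most 8% mitochondrial UMIs, and 73 at 50 UMIs. In Langerhans-like cells they were 13 of 745 (1.74%), against 26 of 1370 (1.9%) over all members. The number of genes measured changed with these choices, so the counts alone do not show a changed share. The class I list median was -0.0029 with Epcam required and -0.048 in Langerhans-like cells. The immediate early list median was 0.47 under the stricter barcode filter and 0.48 as a mean over cells.

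Log2 ratios that changed sign were mostly near 0 or changed with the set of cells. With fewer than 10 Krt5 and Krt14 UMIs Cd74 was at 0.041, H2-Ab1 at 0.033 and H2-Eb1 at 0.0496. Under the stricter barcode filter Cd74 was at 0.0062 and H2-Eb1 at 0.0015, and as a mean over cells H2-Ab1 was at 0.051 and H2-Eb1 at 0.0026. Without Scrublet doublets Calm4 was at 0.29. With Epcam required Cxcl2 was at -0.37 and Rgs1 at -0.37. In Langerhans-like cells Mfge8 was at -0.018, Ltc4s at -0.14, H2-Ab1 at 0.059, H2-Eb1 at 0.0504, Mgl2 at 0.043, Cd209a at 0.61, Il1r2 at -0.19, Ear2 at 0.88, Cxcl2 at -0.58 and Rgs1 at -0.53. The cause of these changes was not tested, except that the last set holds other cells by construction. With 36 and 44 Langerhans-like cells, genes under about 20 UMIs cannot be compared.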
